A study of Mus musculus with 62 samples.

Results

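The glutathione peroxidases Gpx1, Gpx3, Gpx4, Gpx6, Gpx7 and Gpx8 were followed across mouse striatal RNA of 16 groups. They are 6 of the 48795 genes of the deposited count table and were chosen by name, with the very low Gpx6 of Huntington's disease model striatum already known from these data. Gpx6 values are therefore given as a description, with no test between groups, while the other 5 members were tested. Gpx2 and Gpx5, the remaining family members of this name series, were close to undetected and are given as values.

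Many glutathione peroxidases, though not all to the same degree, reduce hydrogen peroxide or lipid hydroperoxides and use glutathione as the electron donor. Gpx1, Gpx2, Gpx3 and Gpx4 are selenoproteins, whereas the mouse Gpx5, Gpx6, Gpx7 and Gpx8 proteins carry a cysteine at the active site. Gpx6 is best known from olfactory tissue, and the striatum is the brain region most affected in Huntington's disease.

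Mice of the R6/2 line, which carry a transgene for a mutant huntingtin fragment, were compared with the control genotype labelled NCAR, an abbreviation that the labels do not expand. These mice received the viruses A-Delta, A-ZFP, N-Delta or N-ZFP in a PHP.eB capsid at 4 weeks of age, and bulk striatal RNA was taken at 11 weeks. The protocol calls the N viruses of this series astrocytic as well, while the cell type label of the same samples reads neuron, so the cells targeted cannot be settled from the labels. In the second experiment, WT mice and mice of the zQ175 knock-in line were injected in the striatum at 6 months with either N-Delta or N-ZFP, and their bulk and neuronal RNA was taken at 12 months. The ZFP viruses encode a zinc finger repressor of mutant huntingtin, and the Delta viruses are their controls, so every animal of every group had received a virus. Each group held 4 libraries, except R6/2 A-ZFP and WT N-ZFP bulk with 3. No label says from how many cultures or litters the samples came, so p-values measure only the spread between these samples.

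The 31 libraries of the R6/2 set held 49237583 to 101295189 counts, the 15 bulk libraries of the zQ175 set 8664055 to 11211827, and the 16 neuronal libraries 4610476 to 12200813. A total of 3 counts, used here as the detection floor, corresponds to 0.0296 to 0.0609 CPM (counts scaled to a library of 1000000) in the first set, 0.268 to 0.346 in the second and 0.246 to 0.651 in the third. In neuronal RNA, 13 of 14 striatal projection neuron markers were higher than in bulk RNA of the same WT group, N-Delta. All 10 microglial and all 8 endothelial markers were lower, beside 55.9% of all genes tested that passed. Glial RNA remained, with astrocyte sums of 1488 to 2410 CPM in neuronal and 5213 to 6386 CPM in bulk RNA. Oligodendrocyte sums were 1459 to 2502 CPM in neuronal and 5742 to 8107 CPM in bulk RNA. Of 8 ependymal and choroid plexus markers 0 passed, and their summed level was 34.7 to 65.4 CPM in neuronal and 26.2 to 45.7 CPM in bulk RNA. In the R6/2 set, libraries also differed in how strongly transcript length went with expression. This length index, the correlation over genes of a library's deviation from the mean with exon length, averaged -0.313 in NCAR N-Delta, 0.211 in R6/2 N-Delta, with no overlap between these groups, and 0.0545 and 0.103 in NCAR A-Delta and R6/2 A-Delta.

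Gpx6 lies on chromosome 13 (GRCm38, chr13:21312125-21319624, plus strand), 19393 bases from the nearer edge of Gpx5 (chr13:21286429-21292731, minus strand). Gpx8 is on the same chromosome (chr13:113042753-113046410, minus strand). Gpx1 is on chromosome 9 (chr9:108338903-108340343, plus strand), Gpx3 on chromosome 11 (chr11:54902453-54910377, plus strand), Gpx4 on chromosome 10 (chr10:80047166-80056439, plus strand) and Gpx7 on chromosome 4 (chr4:108400390-108406961, minus strand). Gpx8 overlaps Cdc20b on the opposite strand, and Gpx2 overlaps Fntb in the same way, with 0 shared exon bases in both cases.

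The stretch before the first annotated Gpx6 exon is shown because Gpx6 was the member whose level differed most between genotypes. It is taken from the RefSeq promoter window of GRCm38.p6, chr13:21311953-21312124 on the plus strand, 172 bases, with CpG dinucleotides in capitals.
Gpx6: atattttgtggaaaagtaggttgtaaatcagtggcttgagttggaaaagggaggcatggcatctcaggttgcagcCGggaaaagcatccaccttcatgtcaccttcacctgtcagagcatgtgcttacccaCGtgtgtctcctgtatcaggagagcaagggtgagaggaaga
Its 300-base window (250 bases before and 50 after the RefSeq start) held 3 CpG, against a median of 7 over 32851 windows of that length, and 31.4% of windows held as few. The windows of Gpx1, Gpx3, Gpx7 and Gpx8 held 11, 13, 19 and 13 CpG. Of the 4 windows listed for Gpx4, 3 held 26 to 31 and the other held 3, as many as Gpx6. The windows of Gpx2 and Gpx5 held 0 and 4. The antioxidant response motif TGACNNNGC, searched on both strands, was in none of the windows of the 6 members and in 12.4% of all windows. The motif CACGTG, its own reverse complement, was in the Gpx6 window, where it includes the second CpG in capitals, and in 7.2% of all windows. A match in letters is a description of the sequence only.

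Per kb of exon, Gpx1 and Gpx4 stood far above the rest of the family in all 16 groups. Gpx1, the cytosolic and mitochondrial peroxidase, had group means of 65.0 to 126 CPM per kb in the R6/2 set, 42.1 to 51.5 in zQ175 bulk and 41.1 to 50.4 in neuronal RNA. Gpx4, which reduces phospholipid hydroperoxides within membranes and guards against ferroptosis, had 20.3 to 50.4, 17.0 to 20.4 and 14.0 to 18.5 CPM per kb. Both selenoproteins were thus present at readily counted levels in neuronal RNA.

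Among the 6 members, Gpx6 ranked the third by level per kb in all 4 WT groups and the last in all 8 mutant groups. In the NCAR groups it ranked lower than in WT, the fourth under A-Delta at 2.63 CPM per kb and the fifth under N-Delta, A-ZFP and N-ZFP at 2.66, 1.29 and 1.56. In WT N-Delta bulk RNA its mean was 4.28 CPM per kb and in WT N-Delta neuronal RNA 8.23 CPM per kb. Over the same neuronal group Gpx7 had 1.46, Gpx3 1.26 and Gpx8 0.791 CPM per kb. In zQ175 neuronal RNA under N-Delta, Gpx6 was at 0.0960 CPM per kb and the other 5 members were above it. Gpx2 and Gpx5 were below it in that group, at 0.0288 and 0 CPM per kb.

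Gpx3, the secreted plasma peroxidase, had group means of 0.572 to 1.59 CPM per kb in the R6/2 set, and Gpx7 and Gpx8, both of the endoplasmic reticulum, 2.11 to 3.00 and 3.10 to 6.19 CPM per kb. In neuronal RNA Gpx7 had 0.994 to 1.46 and Gpx8 0.715 to 1.13 CPM per kb. Gpx2, the gastrointestinal form, gave 103 counts over the 31 libraries of the R6/2 set, 14 over zQ175 bulk and 8 over neuronal RNA. Gpx5, the epididymal form and the neighbour of Gpx6, gave 1 count in the R6/2 set and 0 in the other sets.

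**Figure D1:**
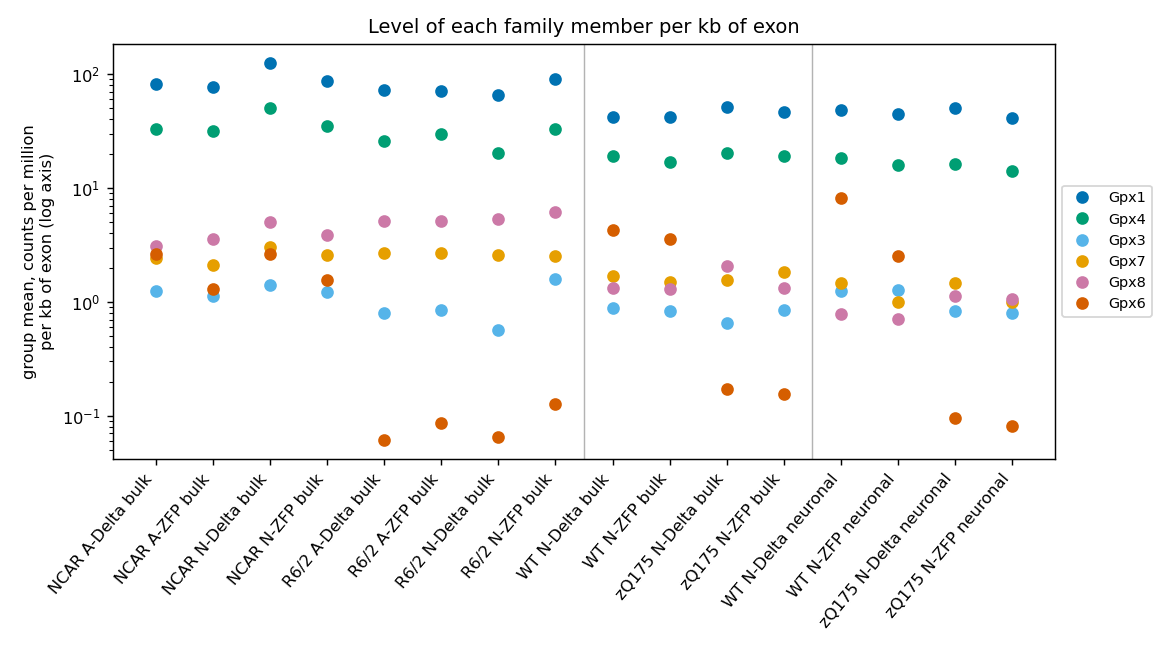
Group mean of each of the 6 members in CPM per kb of exon (log axis) for the 16 groups; grey lines separate the R6/2 set, zQ175 bulk and zQ175 neuronal RNA. Gpx1 and Gpx4 are highest throughout, and Gpx6 falls from 8.23 in WT N-Delta neuronal RNA to 0.0960 in the zQ175 group.

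Gpx6 was nearly absent from the striatum of both models. In NCAR mice under A-Delta its level was 3.08, 4.58, 5.07 and 1.64 CPM, with a mean of 3.59 ± 1.55 CPM (SD, n = 4). In R6/2 mice under A-Delta it was 0.124, 0.0570, 0.0665 and 0.0889 CPM, with a mean of 0.0842 ± 0.0299 CPM (SD, n = 4). Every R6/2 library was below every NCAR library. The fitted log2 change was -5.33 ± 0.63 (SE), 40.2-fold lower and the 12th lowest of 21752 genes.

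The N-Delta groups, separate animals of the same genotypes, gave a like size. NCAR N-Delta libraries had 4.76, 3.55, 2.01 and 4.22 CPM, and R6/2 N-Delta libraries 0.174, 0.0302, 0.121 and 0.0312 CPM. These groups did not overlap either. The log2 change was -5.31 ± 0.64 (SE), the 31st lowest of 21752 genes. The 4 R6/2 N-Delta libraries held 24 Gpx6 counts in all, which allow a pooled level of 0.0596 to 0.138 CPM (95% exact Poisson interval, counting error only).

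In the zQ175 set the bulk values were 5.66, 7.49, 5.03 and 5.24 CPM in WT N-Delta and 0.0904, 0.287, 0.288 and 0.285 CPM in zQ175 N-Delta. All 4 zQ175 libraries were below all WT libraries. The log2 change of -4.56 ± 0.31 (SE), 23.7-fold lower, was the lowest of 17114 genes. The zQ175 N-Delta bulk libraries held 10 Gpx6 counts in all, with an exact Poisson interval of 4.8 to 18.4 counts. The size of the bulk fold therefore rests on few reads. Neuronal RNA held 15.6, 10.9, 9.92 and 8.57 CPM in WT N-Delta, against 0, 0.193, 0.170 and 0.162 CPM in zQ175 N-Delta. Here the log2 change was -6.11 ± 0.46 (SE), 69.3-fold lower, again the lowest of all genes tested (15815). The zQ175 N-Delta neuronal libraries held 6 Gpx6 counts in all, with an exact Poisson interval of 2.20 to 13.1 counts, so the size of this fold rests on few reads.

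**Figure D2:**
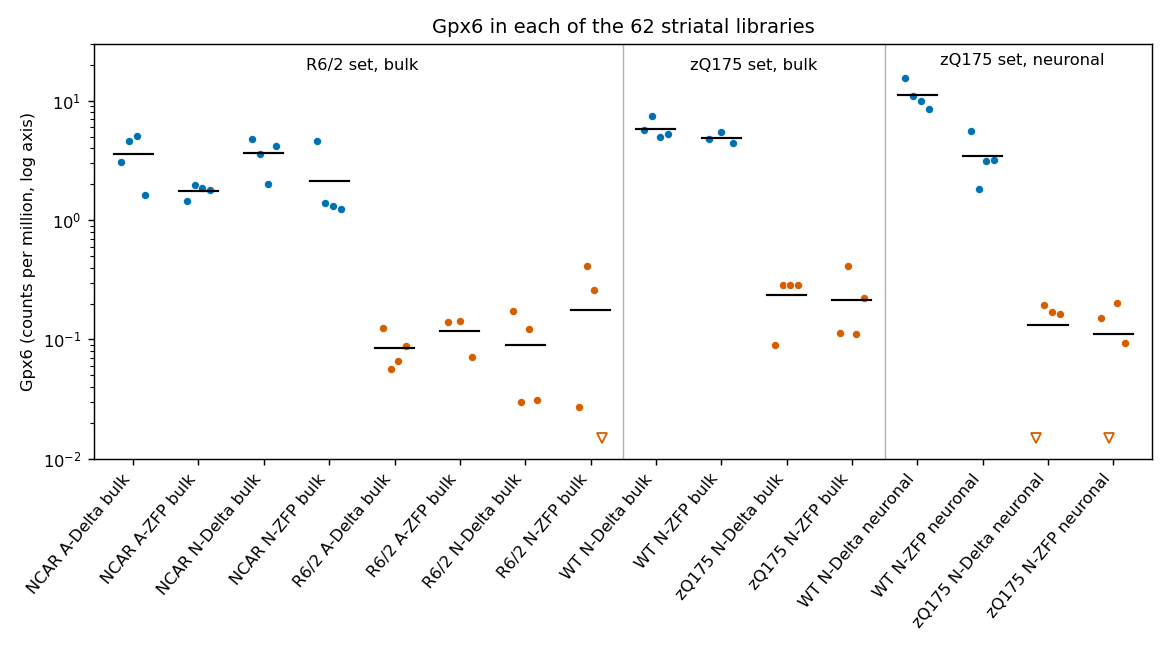
Gpx6 in CPM (log axis) in each of the 62 libraries; blue, NCAR or WT; orange, R6/2 or zQ175; black bars, group means; open triangles, libraries with 0 counts. The control libraries lie between 1.24 and 15.6 and every mutant library at or below 0.416.

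Markers of striatal projection neurons, the cells most affected in these models, moved in the same direction with smaller sizes. In R6/2 over NCAR under A-Delta, 12 of 14 such markers fell, beside 28.9% of all genes tested that passed in either direction, with a median log2 change over the list of -1.47 against 0.017 over all genes. Under N-Delta 8 of 14 fell, beside 55.5% of all genes that passed in either direction. The list median there was -0.68, against -0.028 over all genes. In zQ175 over WT, 13 of 14 fell in bulk RNA and 13 of 14 in neuronal RNA, with medians of -0.91 and -1.01, beside 16% and 9.36% of all genes. Astrocyte and oligodendrocyte markers were lower in R6/2 under A-Delta as well, where 5 of 10 and 4 of 8 fell. Neither summed level overlapped between the genotypes. Astrocyte sums were 3113 to 3376 CPM against 4564 to 5137 in NCAR, and oligodendrocyte sums 4460 to 6335 against 7873 to 9487. Oligodendrocyte precursor sums overlapped under A-Delta, at 176 to 269 CPM in R6/2 against 168 to 234. Under N-Delta they were higher in R6/2, at 252 to 292 against 114 to 188 CPM. Endothelial sums were higher there too, at 270 to 317 against 139 to 189 CPM. Oligodendrocyte sums under N-Delta were lower in R6/2, at 6038 to 7299 against 9037 to 11692 CPM. Projection neuron sums were lower as well, at 3056 to 3704 against 4103 to 7163 CPM. Astrocyte sums under N-Delta overlapped, at 3232 to 3909 in R6/2 against 3877 to 4826 CPM. In zQ175 bulk RNA 1 astrocyte marker rose and 1 fell, and 2 oligodendrocyte markers rose. Astrocyte sums under N-Delta were nonetheless lower there, at 4381 to 5181 CPM in zQ175 against 5213 to 6386 in WT, without overlap. Oligodendrocyte sums overlapped, at 6350 to 6968 against 5742 to 8107 CPM. In bulk tissue, fewer cells of a type and less RNA per cell cannot be told apart, and the part of cell composition in the Gpx6 difference was not tested.

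Within the control genotypes the Gpx6 level differed between viruses by less than between genotypes. NCAR A-ZFP libraries had 1.45, 1.96, 1.85 and 1.80 CPM, a log2 change of -1.03 ± 0.47 (SE) from NCAR A-Delta, and the groups overlapped. NCAR N-ZFP libraries had 4.58, 1.39, 1.33 and 1.24 CPM, and the change from N-Delta was -0.76 ± 0.47 (SE), or -1.46 without library 1, which was the high one. In the R6/2 set the order of group means was NCAR N-Delta, A-Delta, N-ZFP and A-ZFP, then R6/2 N-ZFP, A-ZFP, N-Delta and A-Delta. Each neighbour in that order overlapped the next except NCAR A-ZFP and R6/2 N-ZFP.

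WT mice under N-ZFP had less Gpx6 in neuronal RNA than under N-Delta. The N-ZFP libraries had 5.55, 1.84, 3.15 and 3.22 CPM, all below the lowest N-Delta library of 8.57 CPM. The log2 change was -1.70 ± 0.31 (SE), 3.24-fold lower and the 8th lowest of 15815 genes. In bulk RNA of the same genotype and viruses the N-ZFP libraries had 4.79, 5.51 and 4.40 CPM, with a change of -0.26 ± 0.21 (SE) and overlapping groups. The difference between the neuronal and the bulk change was not tested. Of the 14 projection neuron markers, 0 passed the test in this neuronal comparison, where 0.126% of all genes tested passed, and their median log2 change was -0.16. Values of other cell types differed without passing. All 10 astrocyte markers had negative changes, of -0.56 to -0.25, and all 9 tested microglial markers positive ones, of 0.27 to 1.17. Ttr, a choroid plexus gene, was at 1.72 ± 0.80 (SE), and the summed ependymal and choroid plexus level was 41.0 to 204 CPM against 34.7 to 65.4 under N-Delta. The part of these cells in the Gpx6 difference was not tested. WT N-ZFP neuronal libraries 1 and 3 had mitochondrial shares of 0.801% and 1.05%, against 0.167% to 0.217% under N-Delta. Without them and the 2 zQ175 N-ZFP libraries of highest share, an exclusion chosen after these shares were seen, the Gpx6 change was -2.13, and it was -2.03 without library 1 alone.

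In the mutant groups Gpx6 stayed far below the control genotypes under the repressor viruses. R6/2 A-ZFP libraries had 0.139, 0.143 and 0.0710 CPM, a log2 change of 0.43 ± 0.84 (SE) from A-Delta. R6/2 N-ZFP libraries had 0.0270, 0.416, 0.259 and 0 CPM, with a change of 0.89 ± 0.78 (SE) that was -0.079 without library 2. These R6/2 groups held 26 and 42 Gpx6 counts, and N-ZFP libraries 2 and 3 and all A-ZFP libraries lay above the floors of this set. In zQ175 bulk RNA the N-ZFP libraries had 0.113, 0.411, 0.111 and 0.222 CPM, a change of -0.11 ± 0.57 (SE). The zQ175 N-ZFP neuronal libraries had 0.151, 0, 0.202 and 0.0930 CPM, 3 counts in all with an exact Poisson interval of 0.619 to 8.77 counts. All of these groups overlapped their Delta controls, and their highest library of 0.416 CPM was below the lowest of any control genotype, 1.24 CPM.

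Between neuronal and bulk RNA of WT N-Delta mice the Gpx6 log2 difference was 1.00 ± 0.25 (SE), beside a median of 0.81 for the 14 projection neuron markers, of which 13 rose. In zQ175 N-Delta mice the difference was -0.53 ± 0.66 (SE), from 6 neuronal and 10 bulk counts.

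The other 5 members did not show a difference of that size in any genotype comparison. Under A-Delta, 1 of the 5 passed the test in R6/2 over NCAR, beside 28.9% of all genes tested. That member was Gpx8, with 3.44, 3.47, 2.74 and 3.36 CPM in NCAR and 5.17, 6.27, 5.31 and 4.80 CPM in R6/2. The groups did not overlap, and Gpx8 rose by a log2 change of 0.73 ± 0.16 (SE; adjusted p = 0.00106, edgeR quasi-likelihood test with Benjamini-Hochberg adjustment, as for all adjusted p-values here). Gpx7, the related peroxidase of the endoplasmic reticulum, had a change of 0.12 ± 0.16 (SE; adjusted p = 0.609). Gpx1, Gpx3 and Gpx4 had changes of -0.18, -0.63 and -0.33, none past the threshold. The Gpx3 change passed it without R6/2 A-Delta library 1, at -0.93 (adjusted p = 0.0406). The Gpx4 groups did not overlap but nearly met, at 42.24 to 47.52 CPM in R6/2 and 47.55 to 75.35 CPM in NCAR.

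Under N-Delta, 3 of the 5 passed in R6/2 over NCAR, beside 55.5% of all genes tested, so the share was near the background. Gpx4 libraries had 110, 70.5, 89.6 and 77.7 CPM in NCAR and 35.8, 33.6, 34.6 and 35.7 CPM in R6/2, with no overlap. Gpx4 fell by 1.32 ± 0.18 on the log2 scale (SE; adjusted p = 2.09e-06). Gpx1 libraries had 227, 147, 179 and 170 CPM in NCAR and 84.0, 97.7, 104 and 89.0 CPM in R6/2, and these did not overlap either. Gpx1 fell by 0.95 ± 0.16 (SE; adjusted p = 1.77e-05). For Gpx3 the values were 2.82, 1.29, 2.55 and 3.63 CPM against 0.840, 1.42, 0.924 and 0.968 CPM, with overlapping groups and a fall of 1.31 ± 0.33 (SE; adjusted p = 0.00141).

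The length index moved with these groups. With it as a covariate, the Gpx1 and Gpx3 changes were -0.26 (adjusted p = 0.110) and -0.58 (adjusted p = 0.366), Gpx4 still fell at -0.43 (adjusted p = 0.00271), and Gpx8 rose at 0.62 (adjusted p = 0.0141). In the same fit Gpx8 rose under A-Delta by 0.77 (adjusted p = 2.56e-05), and Gpx4 passed there as well, at -0.22 (adjusted p = 0.0149). Gpx6 was at -5.30 under A-Delta and -5.11 under N-Delta. The index comes from the same expression values, at -0.425 to -0.226 in NCAR N-Delta and 0.167 to 0.287 in R6/2 N-Delta. Library quality and genotype under N-Delta therefore cannot be told apart by this fit. The part of library quality in the N-Delta differences was not tested.

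**Figure D3:**
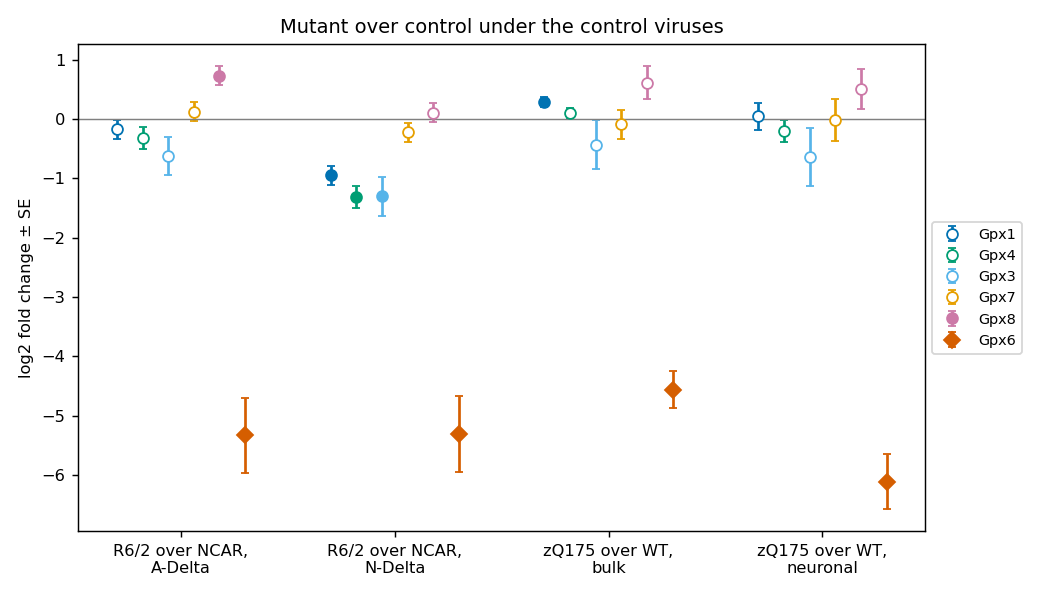
Log2 fold change ± SE of each member in mutant over control mice for the 4 genotype comparisons; filled circles passed an adjusted p of 0.05, open circles did not, and Gpx6 (diamonds) was not tested. Gpx6 lies between -4.56 and -6.11, while the other members lie between -1.32 and 0.73.

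In zQ175 over WT bulk RNA, 1 of the 5 passed, beside 16% of all genes tested. Gpx1 had 60.6, 61.0, 52.7 and 68.6 CPM in WT and 78.2, 73.4, 78.3 and 66.9 CPM in zQ175. The groups overlapped, and Gpx1 rose by 0.29 ± 0.08 (SE; adjusted p = 0.024). The call was lost without any one of 4 libraries, WT N-Delta 1 and 3 and zQ175 N-Delta 1 and 3, with adjusted p up to 0.0891. Gpx8 had 1.70, 0.960, 1.42 and 1.53 CPM in WT and 1.81, 2.68, 2.30 and 1.80 CPM in zQ175. Those groups did not overlap, but the change of 0.61 ± 0.28 (SE) did not pass (adjusted p = 0.144).

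In neuronal RNA 0 of the 5 passed in zQ175 over WT, beside 9.36% of all genes tested. Gpx8 had a change of 0.50 with a 95% interval of -0.22 to 1.23, and its groups did not overlap, at 0.541 to 1.01 CPM in WT and 1.05 to 1.35 CPM in zQ175. The Gpx4 interval was -0.59 to 0.19, that of Gpx1 -0.43 to 0.51, that of Gpx3 -1.67 to 0.40 and that of Gpx7 -0.77 to 0.74. Changes of the size seen for Gpx6 lie outside all 5 intervals.

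The N-ZFP virus was compared with N-Delta in R6/2 mice, where 3 of the 5 rose, beside 8.2% of all genes tested that rose and 13.1% that passed in either direction. Gpx3 had 5.11, 2.40, 2.36 and 1.67 CPM under N-ZFP, all above the R6/2 N-Delta libraries, and rose by 1.48 ± 0.32 (SE; adjusted p = 0.00348). Gpx4 had 62.1, 73.1, 53.1 and 37.7 CPM, again all above N-Delta, and rose by 0.69 ± 0.18 (SE; adjusted p = 0.0127). Gpx1 had 140, 162, 120 and 99.0 CPM, overlapping N-Delta, and rose by 0.48 ± 0.16 (SE; adjusted p = 0.0417). With the length index Gpx1 was at 0.15 (adjusted p = 0.326), while Gpx3 and Gpx4 still rose at 1.10 (adjusted p = 0.0317) and 0.26 (adjusted p = 0.0328). Without R6/2 N-ZFP library 2 Gpx3 alone of the 5 passed.

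In NCAR mice under the same viruses 2 of the 5 fell, beside 10.2% of all genes tested that fell and 22% that passed in either direction. Gpx1 had 120, 153, 112 and 116 CPM under N-ZFP and fell by 0.53 ± 0.16 (SE; adjusted p = 0.0252). Gpx4 had 47.2, 75.6, 56.2 and 60.4 CPM and fell by 0.54 ± 0.18 (SE; adjusted p = 0.0364). Both groups overlapped N-Delta, and 0 members passed without any one of NCAR N-Delta 1 or 4 or NCAR N-ZFP 1, 3 or 4. Gpx1 and Gpx4 were at -0.18 and -0.10 with the length index.

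The difference between the N-ZFP effects in R6/2 and NCAR passed for Gpx1 at 1.01 ± 0.22 (SE; adjusted p = 0.00326), Gpx3 at 1.70 ± 0.45 (SE; adjusted p = 0.00795) and Gpx4 at 1.23 ± 0.26 (SE; adjusted p = 0.00259). Here 32.3% of all genes tested passed. With the length index these were 0.33, 0.95 and 0.36, and none passed. Both N-Delta groups enter this difference, and they are also those of the genotype comparison above.

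The groups of the A-Delta and N-Delta control viruses differed in NCAR mice. Their length index differed as well, averaging -0.313 under N-Delta and 0.0545 under A-Delta, so virus and library quality cannot be told apart. Between N-Delta and A-Delta, Gpx1, Gpx4 and Gpx8 were higher under N-Delta by 0.63 ± 0.16, 0.62 ± 0.18 and 0.68 ± 0.16 (SE; adjusted p = 0.00401, 0.00924 and 0.00317), beside 18% of all genes tested that were higher and 37% in either direction. With the length index they were 0.15, 0.026 and 0.32, and none passed. Gpx4 also did not pass without NCAR N-Delta library 1 (0.49, adjusted p = 0.0605).

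**Figure D4:**
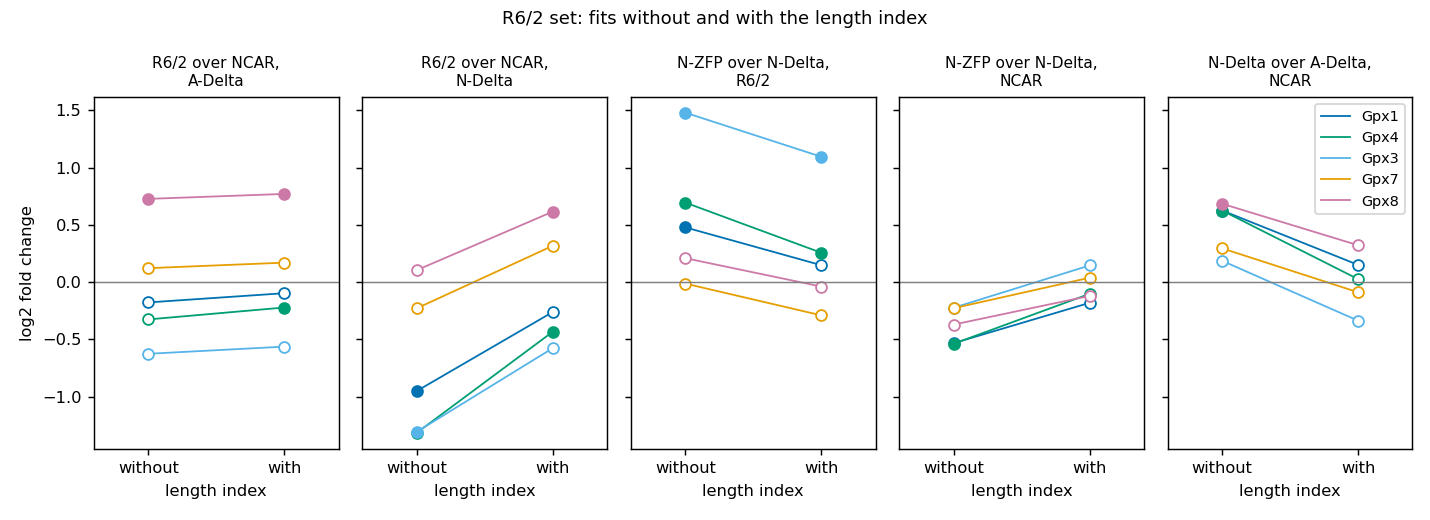
Log2 fold change of the 5 tested members in 5 comparisons of the R6/2 set, fitted without the length index and with it; filled circles passed an adjusted p of 0.05. In R6/2 over NCAR under A-Delta the values move less, though Gpx4 passes only with the index. With N-Delta in the comparison the Gpx1 and Gpx4 values move toward 0. Gpx8 in R6/2 over NCAR under N-Delta moves away from 0 and passes only with the index.

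The A-ZFP virus gave 0 of the 5 in R6/2 and 0 in NCAR, beside 0.0322% and 0.0184% of all genes tested, and 0 for the difference between genotypes, beside 0%. At an unadjusted p under 0.05 these comparisons held 835, 544 and 727 genes. In R6/2 mice Gpx4 had 47.0, 62.4 and 44.2 CPM under A-ZFP, against 47.5, 43.7, 46.5 and 42.2 CPM under A-Delta. The 95% interval of the Gpx4 change was -0.21 to 0.58, and that of Gpx8 was -0.34 to 0.36.

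In zQ175 and WT mice N-ZFP gave 0 of the 5 in bulk RNA, beside 0% of all genes tested in each genotype and for the difference between them. At an unadjusted p under 0.05 these held 922, 1384 and 607 genes. In neuronal RNA it was 0 of the 5 as well, beside 0.329% in zQ175, 0.126% in WT and 0% for the difference. At an unadjusted p under 0.05 these neuronal comparisons held 4811, 958 and 739 of 15815 genes tested. The lowest Gpx1 and Gpx4 levels of the neuronal set, 29.5 and 13.1 CPM, were in zQ175 N-ZFP library 3, which had the highest mitochondrial share of the set at 4.31%.

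**Figure D5:**
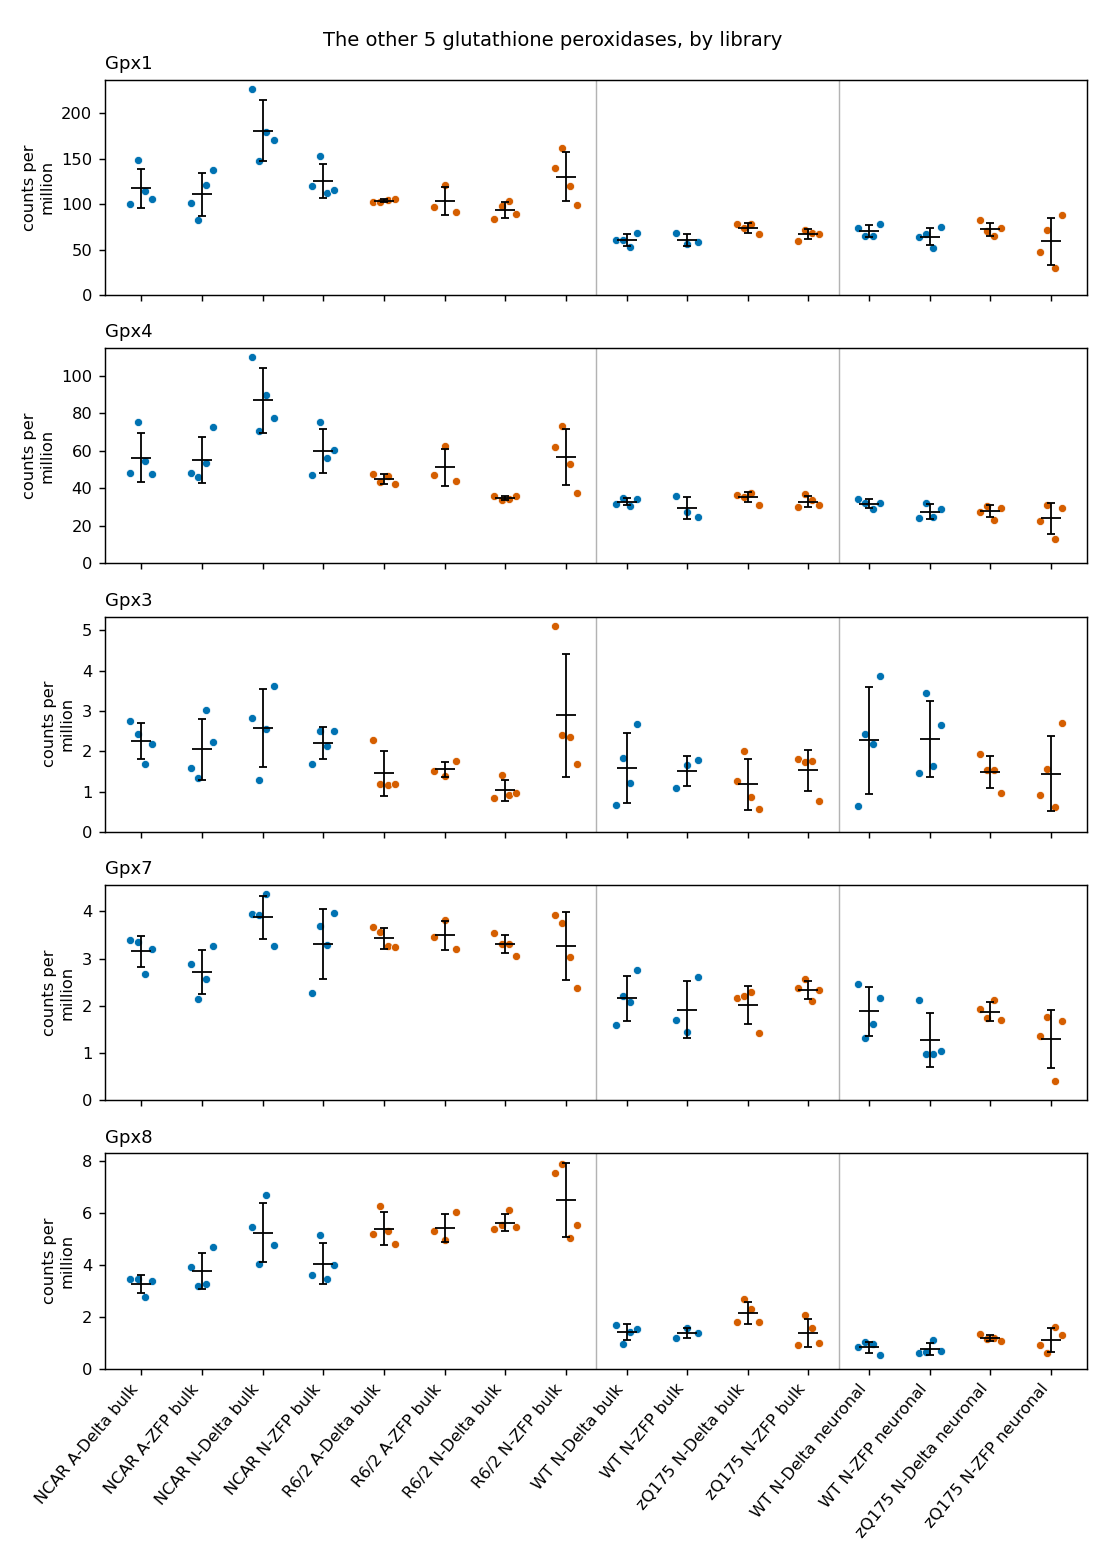
Gpx1, Gpx4, Gpx3, Gpx7 and Gpx8 in CPM in each library of the 16 groups; blue, NCAR or WT; orange, R6/2 or zQ175; black, mean ± SD; grey lines separate the 3 sets. NCAR N-Delta stands highest for Gpx1 and Gpx4, with group means of 181 and 86.9.

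Between neuronal and bulk RNA, 0 of the 5 passed in WT N-Delta mice, beside 55.9% of all genes tested, and 1 of the 5 in zQ175 N-Delta mice, beside 50%. Gpx8 was lower in neuronal RNA of zQ175 mice by a log2 change of -0.78 ± 0.29 (SE; adjusted p = 0.0262) and stood at -0.70 ± 0.31 (SE; adjusted p = 0.0567) in WT mice. The zQ175 call was lost without bulk library 2 or neuronal library 2 or 4, and with the replicate number as a block (-0.78, adjusted p = 0.0609). With that block, which applies if the input and IP libraries of one number come from one animal, 0 of the 5 passed in either genotype. The 95% interval for Gpx4 in WT mice was -0.31 to 0.34 and that for Gpx1 -0.11 to 0.65. Astrocyte markers had a median of -1.40 and microglial markers -5.38 in the same comparison.

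Genes around the family were read in 6 lists, against 28.9% of all genes tested that passed in R6/2 over NCAR under A-Delta and 16% in zQ175 over WT bulk RNA. List medians lay between -0.10 and -0.014 in R6/2 and between 0.026 and 0.097 in zQ175, against 0.017 and 0.0022 over all genes tested. Of 22 genes that supply and recycle glutathione, 1 rose and 4 fell in R6/2 over NCAR under A-Delta, a share below the 28.9% of all genes, with a median of -0.036. G6pdx, which makes NADPH, fell by 0.37 ± 0.08 (SE; adjusted p = 0.00102), Slc3a2, a subunit of the cystine carrier, by 0.27 and Ggct by 0.28. In zQ175 over WT bulk RNA 3 rose and 1 fell, near the 16% of all genes. Gss, the glutathione synthetase, rose by 0.36 ± 0.11 (SE; adjusted p = 0.0263), Gclm, a subunit of the first synthesis enzyme, by 0.23 and Ggt7 by 0.27.

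Of 18 other peroxide and superoxide enzymes, 1 rose and 3 fell in R6/2 and 3 rose and 1 fell in zQ175 bulk RNA, beside 28.9% and 16% of all genes. Sod2, the mitochondrial superoxide dismutase, rose by 0.25 ± 0.06 in R6/2 and by 0.22 ± 0.05 in zQ175 (SE; adjusted p = 0.00221 and 0.00424). Prdx6, a peroxiredoxin that also reduces phospholipid peroxides, fell by 0.50 and Txn2, the mitochondrial thioredoxin, by 0.35 in R6/2. In zQ175 Prdx2 rose by 0.28 and Sesn3 fell by 0.30.

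Of 14 genes for selenocysteine incorporation and selenium supply, 3 rose in R6/2 and 1 in zQ175 bulk RNA, and 0 fell in either, shares below the 28.9% and 16% of all genes. Sephs1 rose by 0.20 and 0.34, and in R6/2 Trnau1ap rose by 0.44 and Secisbp2, which binds the selenocysteine insertion element, by 0.35. Of 18 other selenoproteins, 2 rose and 4 fell in R6/2, and 2 rose and 1 fell in zQ175, beside the same 28.9% and 16%. Selenov fell by 1.86 ± 0.31 and Dio2, the deiodinase that activates thyroid hormone, by 0.77 in R6/2. Selenoo, a mitochondrial selenoprotein, rose by 0.36 and 0.48, and in zQ175 Selenon rose by 0.31 and Selenoi fell by 0.35.

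Of 18 tested genes of lipid peroxidation and iron handling, 2 rose and 3 fell in R6/2, and 2 of 16 rose in zQ175, near or below the 28.9% and 16% of all genes. Alox12b, a lipoxygenase known from skin, fell by 3.34 ± 0.29 (SE; adjusted p = 1.37e-09) in R6/2. Aifm2, which protects membranes from lipid peroxidation without glutathione, rose by 0.48 and 0.50, Ncoa4, which delivers ferritin for breakdown, rose by 0.38 in R6/2, and Ftl1, a ferritin subunit, rose by 0.25 in zQ175. Of 18 tested genes of NRF2 and its targets, 0 rose and 4 fell in R6/2, and 4 of 17 rose and 1 fell in zQ175, beside 28.9% and 16% of all genes. Blvrb fell by 1.08, Gstm1 by 0.55 and Fth1 by 0.65 in R6/2, and Me1 rose by 0.39 in zQ175. Of the genes named here, G6pdx, Gclm, Fth1 and Ftl1 each stand in 2 of the lists. Genes not named here, among them Slc7a11, Hmox1 and Txnrd1, are shared between lists too. None of the genes named from these lists passed in both genotype comparisons with opposite signs.

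Over the 16 groups, the 5 genes whose group means lay nearest to the Gpx6 pattern were Phex, Abi3bp, Sec14l3, Ddit4l and Slc4a11, of 12698 genes compared. Likeness was the root mean square difference of log2 CPM, each centred within its set, and was 0.874, 0.889, 0.894, 0.981 and 0.987. Phex had log2 changes of -3.16 ± 0.22 in R6/2 under A-Delta and -2.74 ± 0.22 in zQ175 bulk RNA, and Sec14l3 -3.66 ± 0.38 and -3.55 ± 0.24 (SE). In WT neuronal RNA under N-ZFP, where Gpx6 was at -1.70, Phex was at -1.08 ± 0.34 and Sec14l3 at 0.44 ± 0.21 (SE). The group means of Gpx6 spanned 5.40 on this log2 scale, against 2.99 to 4.48 for the 5 genes.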

How the data were processed

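All 62 striatal libraries, 46 of bulk and 16 of neuronal RNA, were used. The authors deposited whole-number read counts per Ensembl gene with no normalization. Per the submitters' processing notes reads were handled with STAR and HTSeq on mm10; versions and the strand setting are not given in the sources used here. Per the labels' protocols the library kit was stranded. Of 48795 genes, 48435 were matched to symbols of GENCODE M21 (GRCm38), which also gave exon lengths.

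Each set (R6/2 bulk, zQ175 bulk, zQ175 neuronal, and both zQ175 sets together for neuronal over bulk RNA) was fitted once with edgeR 4.0.16 in R 4.3.3, with TMM factors, filterByExpr and the quasi-likelihood test. Benjamini-Hochberg adjustment ran over all genes tested, with a threshold of 0.05. CPM values use TMM-scaled totals of their own set. SE is the log2 change over the root of F, and 95% intervals use the t quantile of the fit. All 5 tested members passed the filter in every set. Alternatives were DESeq2 1.42.0, RLE factors, no filter, the compared groups alone, a replicate block, the length index, and each library left out. The fits were tested on simulated data.

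Named genes are the 6 members, Gpx2, Gpx5, up to 3 called genes of smallest p per pathway list in each of R6/2 over NCAR under A-Delta and zQ175 over WT bulk RNA, and the 5 genes nearest to Gpx6 with a mean of at least 1 CPM in each set. Members and lists were chosen with earlier results of these data known. The labels give groups the same replicate numbers without saying that a number marks a shared animal or batch. In no comparison did every same-numbered pair correlate above 0.1, so the numbers were not taken to pair samples. Mitochondrial shares did follow the number in part. In the R6/2 set library 4 was highest in every NCAR group and in R6/2 A-Delta and N-Delta, at 9.66% to 12.1%. In R6/2 N-ZFP library 4 was at 8.55%, below library 2. Libraries 1 and 3 were highest in both N-ZFP neuronal groups. The part of a batch by number was not tested. The bulk and neuronal zQ175 libraries are described as input and IP with the same numbers and may share animals, which the labels do not state, so neuronal over bulk RNA is given with the block too. How reads shared with processed pseudogenes of this family were counted is not given in the sources used here. Intervals from counts cover counting error only.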

Additional observations from a re-analysis of the deposited data

Results flagged for a closer look

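Of 84 combinations of a member and a group of 4 libraries, 9 held a library that stood apart from the other 3 (Dixon's test within a group at the 95% level, applied to all 6 members, which chance passes in about 5% of groups). For Gpx6 these were NCAR N-ZFP library 1 at 4.58 CPM, zQ175 N-Delta bulk library 1 at 0.0904 CPM and zQ175 N-Delta neuronal library 1 at 0 CPM. The last 2 rest on 1 and 0 counts. For Gpx3 they were R6/2 A-Delta library 1 at 2.28 CPM and zQ175 N-ZFP bulk library 4 at 0.775 CPM. For Gpx7 they were WT N-ZFP neuronal library 1 at 2.13 CPM and zQ175 N-Delta bulk library 4 at 1.42 CPM, and for Gpx8 NCAR A-Delta library 3 at 2.74 CPM and WT N-ZFP neuronal library 3 at 1.09 CPM. The last gene's 2 libraries lie on opposite sides of their groups.

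Tested as the difference itself, the N-ZFP effect differed between R6/2 and NCAR mice for 3 members, beside 32.3% of all genes tested. These members were Gpx1 by 1.01, Gpx3 by 1.70 and Gpx4 by 1.23 on the log2 scale. Each stopped passing when the length index, which differs between the N-Delta groups, was a covariate.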

How the results depend on the processing

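The genotype change of Gpx6 kept its direction and size under every alternative, with leave-one-out ranges of -5.59 to -5.12 under A-Delta, -5.85 to -5.03 under N-Delta, -4.67 to -4.30 in zQ175 bulk RNA and -6.26 to -5.91 in neuronal RNA. Its smallest groups hold 3 to 10 counts, which limits the size of the fold and any comparison between mutant groups. The rise of Gpx8 under A-Delta passed in every alternative. Numbers of members called moved with the length index to 2 in R6/2 over NCAR under A-Delta, and to 0 in N-ZFP in NCAR, in the N-ZFP difference between genotypes and in N-Delta over A-Delta in NCAR. With the compared groups alone they were 1 in N-ZFP in R6/2, 0 in N-ZFP in NCAR, 1 in neuronal over bulk in WT and 2 in neuronal over bulk in zQ175. In that last comparison they were 0 with no filter and 0 with the replicate block. The replicate block changed no other count of members by over 1.5 times, and N-ZFP in R6/2 had 2 members with it, Gpx1 having an adjusted p of 0.0532. DESeq2 and RLE factors moved no count of members by over 1.5 times. With each library left out in turn, counts of members were 1 to 2 in R6/2 over NCAR under A-Delta, 1 to 3 in N-ZFP in R6/2, 0 to 3 in N-ZFP in NCAR, 0 to 1 in zQ175 over WT bulk, and 0 to 1 in neuronal over bulk in WT and in zQ175. The cause of these shifts was not tested. Members that changed sign passed the threshold neither with nor without the alternative. With the length index, sign changes were R6/2 over NCAR under N-Delta (Gpx7 0.32), A-ZFP in R6/2 (Gpx3 -0.020, Gpx7 -0.064, Gpx8 -0.062), the A-ZFP difference between genotypes (Gpx1 -0.063), N-ZFP in R6/2 (Gpx8 -0.039), N-ZFP in NCAR (Gpx3 0.15, Gpx7 0.039), the N-ZFP difference between genotypes (Gpx7 -0.33), N-Delta over A-Delta in NCAR (Gpx3 -0.34, Gpx7 -0.089). With the replicate block they were N-ZFP in WT bulk (Gpx3 0.081, Gpx8 0.019), zQ175 over WT neuronal (Gpx7 0.046), N-ZFP in zQ175 neuronal (Gpx3 -0.045), the neuronal N-ZFP difference, zQ175 minus WT (Gpx3 -0.11). With no filter they were N-ZFP in WT neuronal (Gpx3 -0.0074), the neuronal N-ZFP difference, zQ175 minus WT (Gpx4 -0.0067, Gpx8 -0.044). With the compared groups alone they were A-ZFP in R6/2 (Gpx1 0.0017), neuronal over bulk in WT (Gpx4 -0.022), neuronal over bulk in zQ175 (Gpx1 -0.020). Without the 4 libraries of high mitochondrial share, a setting chosen after seeing the data, they were N-ZFP in zQ175 neuronal (Gpx1 0.15, Gpx4 0.13), N-ZFP in WT neuronal (Gpx1 0.0040), the neuronal N-ZFP difference, zQ175 minus WT (Gpx1 0.14). With each library left out in turn, these members changed sign at least once. In R6/2 over NCAR under N-Delta the range was -0.0031 to 0.24 for Gpx8. In A-ZFP in R6/2 the range was -0.13 to 0.079 for Gpx1, -0.014 to 0.41 for Gpx3, -0.041 to 0.089 for Gpx7, -0.070 to 0.089 for Gpx8. In A-ZFP in NCAR the range was -0.21 to 0.050 for Gpx1, -0.39 to 0.010 for Gpx3, -0.20 to 0.14 for Gpx4. In the A-ZFP difference between genotypes the range was -0.057 to 0.20 for Gpx1. In N-ZFP in R6/2 the range was -0.11 to 0.11 for Gpx7. In N-Delta over A-Delta in NCAR the range was -0.029 to 0.41 for Gpx3. In zQ175 over WT bulk the range was -0.22 to 0.048 for Gpx7. In N-ZFP in WT bulk the range was -0.086 to 0.071 for Gpx1, -0.34 to 0.30 for Gpx3, -0.18 to 0.077 for Gpx8. In the bulk N-ZFP difference, zQ175 minus WT the range was -0.026 to 0.25 for Gpx4. In zQ175 over WT neuronal the range was -0.019 to 0.097 for Gpx1, -0.15 to 0.14 for Gpx7. In N-ZFP in zQ175 neuronal the range was -0.43 to 0.29 for Gpx3, -0.33 to 0.0091 for Gpx4, -0.32 to 0.088 for Gpx8. In N-ZFP in WT neuronal the range was -0.31 to 0.40 for Gpx3. In the neuronal N-ZFP difference, zQ175 minus WT the range was -0.40 to 0.078 for Gpx1, -0.44 to 0.36 for Gpx3, -0.12 to 0.22 for Gpx4, -0.083 to 0.45 for Gpx7, -0.17 to 0.24 for Gpx8. In neuronal over bulk in WT the range was -0.013 to 0.077 for Gpx4, -0.27 to 0.019 for Gpx7. In neuronal over bulk in zQ175 the range was -0.030 to 0.069 for Gpx1, -0.19 to 0.012 for Gpx7.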
